A study of Homo sapiens with 79 samples.

Results

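Small nucleolar RNAs and the small RNAs of the Cajal body were read out in single cells of human retinal organoids, which are stem cell cultures that form layered retinal tissue. The members were all rows of the count table whose names start with SCARNA, SNORA or SNORD, which gave 107 of 24415 rows, namely 13 SCARNA, 46 SNORA and 48 SNORD rows. Names that start with SNHG, the long RNAs that carry such small RNAs in their introns, were kept as host genes.

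The cells came from H9 human embryonic stem cells with a CRX-GFP reporter, a line in which a photoreceptor transcription factor gene drives a fluorescent protein. All organoids received the same medium with serum, thyroid hormone T3, taurine and retinoic acid, after Y27632 at the start, and no group was treated differently. Unsorted dissociated cells were captured on Fluidigm C1 chips at day 60 (1 chip, 578 cells), day 90 (1 chip, 661 cells) and day 200 (2 chips, called a and b here, with 356 and 381 cells). The authors describe full-length cDNA libraries, made with SMART-Seq v4, which primes on poly(A) tails, and Nextera XT. The reads are deposited as 79 chip columns. One line stands for all cells, so the age of the organoid and the chip cannot be told apart at days 60 and 90. Day 200 alone was repeated on a second chip. Columns of a chip and cells are not replicates, and no test was made.

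The chips held 104935384 reads at day 60, 115731787 at day 90, and 96640680 and 89204989 on chips a and b, with a median of 160343 to 251929 reads per cell. Values are given as CPM, the reads of a row or group per 1000000 reads of a chip, with exact 95% Poisson intervals where shown. Where 4 values follow each other without a day, they are those of day 60, day 90, chip a and chip b. The reads carry no molecular identifiers, so that intervals cover counting error only. Of the 90 marker genes of retinal and accompanying cells used below, 86 to 90 had reads on a chip. VIM, a glial and progenitor filament gene, was read in 90.7% to 95.7% of the cells. The photoreceptor gene RCVRN was read in 13.5% of the day 60 cells and in 51.4% to 69.4% of the cells on the other chips. STMN2, a gene of young neurons, was read in 70.6% at day 60 and 19.7% to 40.5% later. The mixture of cells thus differed between the chips together with every value below, and its part in them was not tested. Fewer cells that hold an RNA and less of it per cell both lower a sum of reads, so shares of cells stand beside the sums.

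A property of the deposited table bears on all members. On each chip a row had reads either in no cell or in at least 5 cells, apart from 14 rows at day 60, of which 8 were members, and 6 rows on chip a. A listed 0 may therefore stand for reads in up to 4 cells of that chip, and no fold is given against one. Members with reads numbered 90 at day 60, 70 at day 90, and 21 and 44 on chips a and b. The listed zeros came to 15.9%, 34.6%, 80.4% and 58.9% of the members in that order, against 13.9%, 9.31%, 34.6% and 23.1% of all rows. A further 92 rows carry Ensembl identifiers and have reads on the day 200 chips alone, and 166 rows carry bare numbers and have reads at days 60 and 90 alone. These rows were not assigned to any member.

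Small nucleolar RNAs guide enzymes to bases of other RNAs by pairing with them. Box C/D RNAs, named SNORD, bind fibrillarin with NOP56, NOP58 and SNU13 and direct methylation of ribose, mostly in ribosomal RNA. Box H/ACA RNAs, named SNORA, bind dyskerin with NHP2, NOP10 and GAR1 and direct the change of uridine to pseudouridine. The SCARNA members belong to either type or to both, gather in the Cajal body, a nuclear compartment, and act on spliceosomal RNAs. Most human members are cut out of introns of a host gene, and their mature ends carry no poly(A) tail, so that a library primed on poly(A) is not built to capture them.

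The sequences below are those of the members that led a class or went against it, as the GENCODE 44 transcripts give them on GRCh38, each from 5′ to 3′. Capitals mark letters found by search. In SNORD members they mark the C box TGATGA within the first 25 bases and the D box CTGA within the last 15. In SCARNA and SNORA members they mark the ACA box that stands 3 bases before the end. In SCARNA22 they also mark TGAG, the letters of the Cajal body signal. Whether this TGAG acts as that signal was not tested. SCARNA22 leads its class and lies on the plus strand at chr4:1974636-1974760 within NSD2, whose exons cover it in GENCODE 44.
SCARNA22: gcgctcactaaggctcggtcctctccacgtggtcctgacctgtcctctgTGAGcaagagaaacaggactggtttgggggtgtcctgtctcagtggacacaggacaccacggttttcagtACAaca
SNORA12 lies on the minus strand at chr10:100237156-100237302 in an intron of CWF19L1, and SNORA11F on the minus strand at chr10:73126080-73126207 outside any host with a row. They are the SNORA members with the most reads.
SNORA12: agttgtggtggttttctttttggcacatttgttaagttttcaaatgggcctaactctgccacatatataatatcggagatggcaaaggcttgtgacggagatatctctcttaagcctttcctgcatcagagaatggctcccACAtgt
SNORA11F: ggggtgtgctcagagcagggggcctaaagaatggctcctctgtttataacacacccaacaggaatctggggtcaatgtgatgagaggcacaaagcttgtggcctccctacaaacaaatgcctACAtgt
The 3 copies of SNORD116 below, from the plus strand of chromosome 15, are shown because their levels differed although they share a cluster, at chr15:25070432-25070526, chr15:25054210-25054304 and chr15:25099499-25099594 in that order. All overlap exons of the host SNHG14.
SNORD116-8: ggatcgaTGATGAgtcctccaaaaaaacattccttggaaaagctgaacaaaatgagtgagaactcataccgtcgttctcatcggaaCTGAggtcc
SNORD116-2: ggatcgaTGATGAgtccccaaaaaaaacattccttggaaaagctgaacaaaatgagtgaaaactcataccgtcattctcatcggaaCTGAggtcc
SNORD116-26: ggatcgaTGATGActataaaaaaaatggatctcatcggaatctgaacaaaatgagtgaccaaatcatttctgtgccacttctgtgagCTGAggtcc
SNORD13E and SNORD99 are shown as members whose CPM was close to or above that of day 60 on the later chips. SNORD13E lies on the minus strand at chr15:65696833-65696936 in an intron of DENND4A, and SNORD99 on the minus strand at chr1:28578749-28578822 in an intron of SNHG12. In SNORD13E the letters TGATGA run past base 25 and are left in lower case.
SNORD13E: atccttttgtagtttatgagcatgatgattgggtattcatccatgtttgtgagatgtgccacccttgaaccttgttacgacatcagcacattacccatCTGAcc
SNORD99: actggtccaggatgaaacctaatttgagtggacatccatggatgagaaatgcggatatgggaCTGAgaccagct

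Of the 107 members, 96 matched 1 locus in GENCODE 44, 6 matched several and 5 matched none. Placed members had a median length of 136 bases for SCARNA, 133.5 for SNORA and 92 for SNORD. Inside a host gene with a row of its own lay 90 of them, 63 in an intron and 27 over an annotated exon of the host. The hosts of SNORD members were fewer than the members, with 26 hosts for the class, 17 SNORD members in SNHG or ZFAS1 genes and 6 in ribosomal protein genes. The 13 SCARNA members had 13 hosts, none of them a ribosomal protein gene. The letters TGATGA stood in the first 25 bases of 68.9% of the 45 placed SNORD members, against 66.1% of all 313 annotated SNORD genes, and CTGA in the last 15 bases of 84.4% against 87.2%. ACA stood 3 bases before the end of 73.7% of 38 SNORA members, against 66.4% of 214 annotated genes. TGAG, searched on the transcript strand anywhere in the sequence, was in 53.8% of the 13 SCARNA members and in 70.8% of 24 annotated ones. The SNORD shares thus lay close to those of the whole class. Over the 96 placed members the mean CPM had a Spearman correlation of 0.02 with length and of -0.03 with GC content, a description across members that share libraries.

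All 3 classes had more reads at day 60 than on any later chip. Together they took 900 CPM at day 60, 142 at day 90, and 120 and 119 on chips a and b, which is 6.34-fold, 7.50-fold and 7.57-fold more at day 60. One RNA, SCARNA22, made much of this difference. Without it the sums were 312, 123, 91.5 and 77.7 CPM, and without the SNORD116 family as well they were 247, 120, 87.2 and 70.1 CPM. The difference in the remaining 93 members was 2.06-fold against day 90, 2.83-fold against chip a and 3.52-fold against chip b. After each cell was thinned to 50000 reads, a day 60 cell had reads of a median of 3 members, a day 90 cell of 1, a chip a cell of 0 and a chip b cell of 1. Cells with no member read made up 2.77%, 19.4%, 51.97% and 29.9% of the thinned cells in that order.

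**Figure D1:**
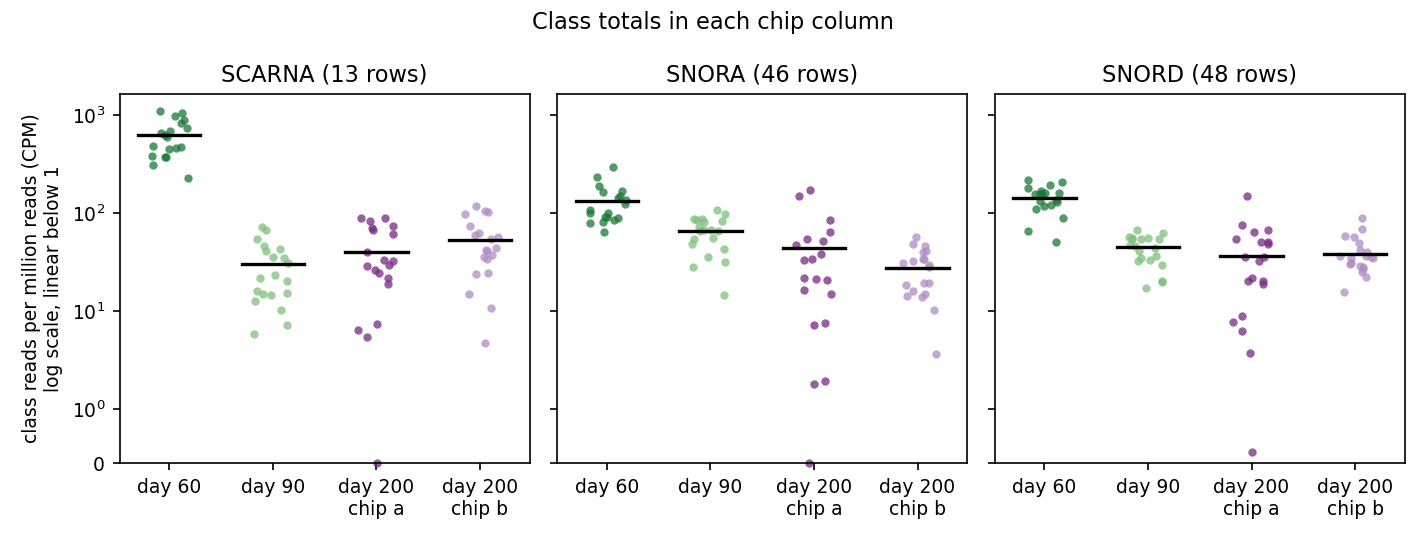
Reads of the SCARNA, SNORA and SNORD classes in CPM by chip, on a log axis that is linear below 1, with 1 point for each chip column and a line for the whole chip. For SCARNA every one of the 19 day 60 columns, at 229 CPM or more, lies above all 60 other columns, which reach 119 CPM, whereas the columns of the other classes overlap.

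The SCARNA class stood at 624 CPM (619.6 to 629) at day 60, 30.4 (29.4 to 31.5) at day 90, and 39.7 and 52.9 on chips a and b. Day 60 was 20.5-fold above day 90 and 15.7-fold and 11.8-fold above the day 200 chips, which differed from each other by 1.33-fold. Every day 60 column, from 229 to 1105 CPM, lay above the highest of the other columns at 119 CPM. In thinned cells a SCARNA read was found in 79.4% at day 60, 37.9% at day 90, and 23.9% and 34.9% on chips a and b. Before thinning the shares were 85.6%, 50.7%, 30.6% and 42.3%. Both the number of cells with a read and the reads in them were lower later, since a cell with SCARNA reads held a median of 95 at day 60, 5 at day 90, and 21 and 17 on chips a and b.

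SCARNA22 gave 94.3% of the SCARNA reads at day 60, 61.1% at day 90, and 71.8% and 78.1% on chips a and b. Its level was 589 CPM at day 60 (584 to 594), 18.6 at day 90, and 28.5 and 41.3 on chips a and b. The cells with a SCARNA22 read numbered 480, 266, 91 and 135. Day 60 columns ran from 229 to 1057 CPM with a median of 570, and no column of another chip passed 102 CPM, so the groups of columns did not overlap. In thinned cells it was read in 76.5%, 28.9%, 20.5% and 29.9%. No single cell set the level, because the cell with the most SCARNA22 reads held 1.23% of them. Its host NSD2, which encodes a histone methyltransferase, stood at 139, 127, 106 and 92.5 CPM, a narrower range than that of the small RNA.

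The other 12 SCARNA members summed to 35.5 CPM at day 60, 11.8 at day 90, and 11.2 and 11.6 on chips a and b. That was about 3-fold more at day 60, with folds of 3.00, 3.18 and 3.06. SCARNA23, in an intron of the DNA polymerase gene POLA1, stood at 8.86, 0.881, 2.88 and 0.930 CPM. SCARNA1, in the phosphatase inhibitor gene PPP1R8, stood at 5.90 and 0.112 CPM at days 60 and 90, was listed at 0 on chip a and stood at 0.897 on chip b. SCARNA8, in the gene of the augmin subunit HAUS6, was at 5.28 and 0.268 CPM and listed at 0 on both day 200 chips. These and SCARNA9, at 2.77, 1.55, 0.331 and a listed 0, were highest at day 60. SCARNA21, from an intron of the chromatin remodeller gene CHD3, stood at 5.66, 4.69, 6.98 and 3.27 CPM. Its day 200 chips lay on either side of day 60, and only 56 cells over all chips had its reads. SCARNA13 in SNHG10 stood at 2.67, 1.23, a listed 0 and 3.04 CPM, and SCARNA7 in the importin gene KPNA4 at 1.93, 0.691, a listed 0 and 1.85 CPM. For these 2 the day 200 chips disagreed and chip b was close to day 60. SCARNA20, in the deubiquitinase gene USP32, went the other way at 0.0572, 1.17, 0.993 and 0.874 CPM, with reads in 1, 24, 6 and 9 cells, so that its day 60 level rests on 1 cell.

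**Figure D2:**
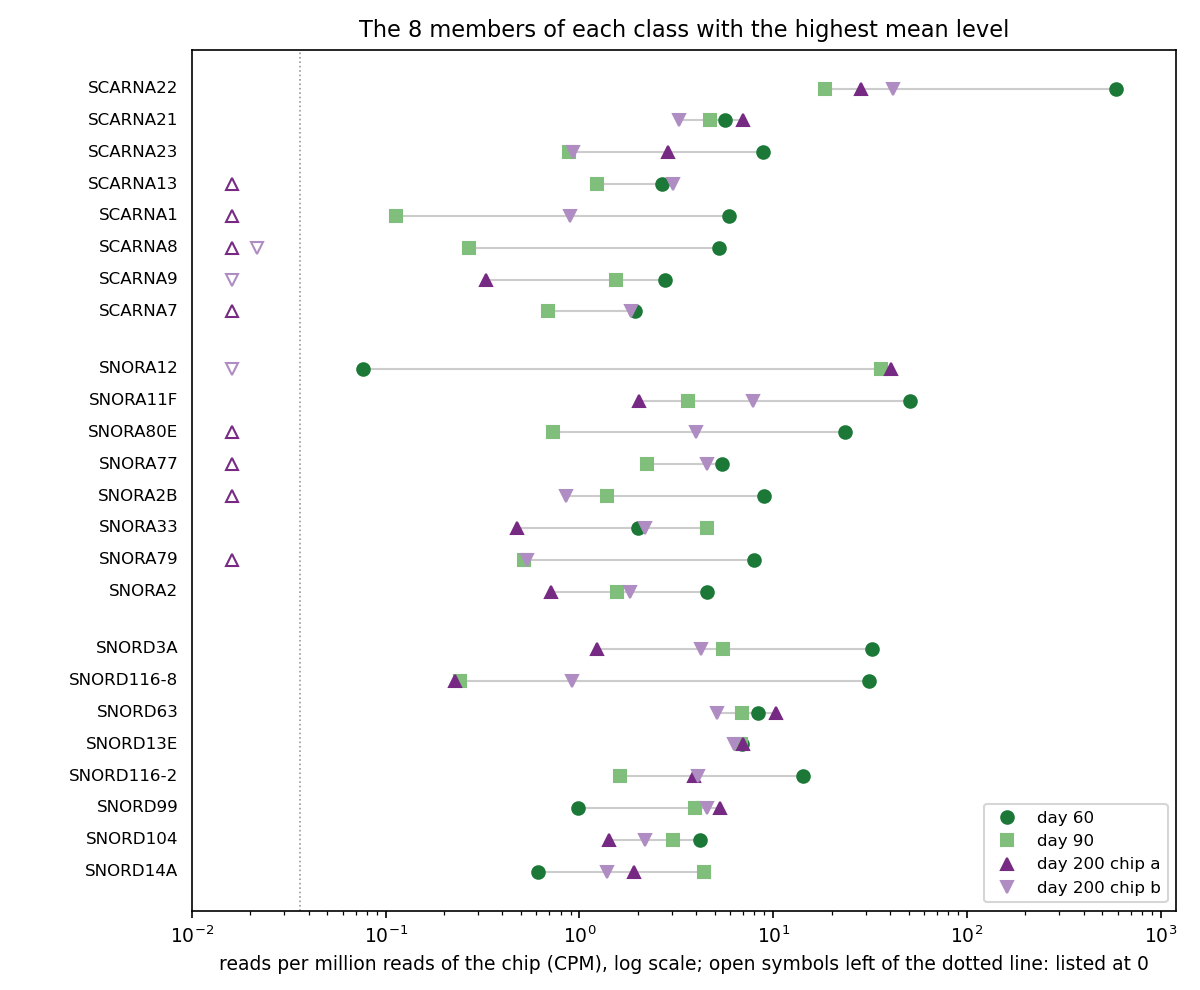
CPM on each chip, on a log axis, of the 8 members of each class with the highest mean level, with 1 symbol for each chip and open symbols at the left for a listed 0. SCARNA22 runs from 18.6 CPM at day 90 to 589 CPM at day 60 and SNORD116-8 from 0.228 CPM on chip a to 31.4 CPM at day 60, whereas the 4 symbols of SNORD13E lie together at 6.29 to 7.01 CPM.

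The SNORA class stood at 133 CPM at day 60, 66.4 at day 90, and 43.9 and 27.6 on chips a and b, or 2.00-fold, 3.03-fold and 4.83-fold more at day 60. Its columns overlapped, since only 3 of the 19 day 60 columns lay above all others. In thinned cells a SNORA read was found in 48.8% at day 60, 54.5% at day 90, and 17.4% and 24.9% on chips a and b, so by cells day 90 was the highest, as before thinning at 58.3%, 64.3%, 23.6% and 33.3%. Few cells carried the class on chip a, where the 10 cells with the most SNORA reads held 49.4% of them.

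SNORA12 set the day 90 and chip a values. It stood at 0.0762 CPM at day 60 in 6 cells, at 36.2 CPM at day 90 in 261 cells, at 40.6 CPM on chip a in 67 cells, and was listed at 0 on chip b. In thinned cells it was read in 0.173%, 32.4%, 13.8% and no cell. The 2 chips of day 200 thus stood at both ends of its range. Day 90 was 475-fold and chip a 533-fold above day 60, where it had 8 reads. Its host CWF19L1, related to a yeast splicing factor, stood at 25.5, 26.4, 15.2 and 28.3 CPM, with chip b the highest. At day 90 a CWF19L1 read was found in 19.2% of the cells with a SNORA12 read and in 15.0% of the others.

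SNORA11F was the reverse. It stood at 50.6 CPM at day 60 in 167 cells, 3.64 at day 90 in 70 cells, 2.04 on chip a in 14 cells and 7.88 on chip b in 47 cells. Day 60 was 13.9-fold, 24.8-fold and 6.42-fold above the others. Its day 60 columns ran from 9.73 to 142 CPM and overlapped those of chip b, which reached 31.8 CPM. It lies antisense to NUDT13, and since no strand setting of the counting is given, reads of the 2 cannot be told apart. Without SNORA12 and SNORA11F the other 44 SNORA members summed to 82.4, 26.6, 1.19 and 19.7 CPM, so that chip a had almost no reads of the rest.

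Other SNORA members with the most reads also led at day 60. SNORA80E, in the splicing regulator gene KHDC4, stood at 23.6, 0.734, a listed 0 and 4.00 CPM, with the host at 42.8, 59.2, 48.6 and 38.1. SNORA2B, in KANSL2 of a histone acetyltransferase complex, stood at 8.92, 1.38, a listed 0 and 0.852 CPM. SNORA79, in the general transcription factor gene GTF2A1, stood at 8.00, 0.518, a listed 0 and 0.538 CPM. All 3 were listed at 0 on chip a and low on chip b. SNORA77, in the calcium pump gene ATP2B4, differed little between day 60 and chip b, at 5.41, 2.24, a listed 0 and 4.53 CPM, while ATP2B4 itself was higher later at 129, 255, 465 and 351 CPM. SNORA2, with no match in GENCODE 44, stood at 4.57, 1.56, 0.714 and 1.83 CPM. SNORA33, in the ribosomal protein gene RPS12, was highest at day 90, at 2.01, 4.53, 0.476 and 2.17 CPM.

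The SNORD class stood at 143 CPM at day 60, 45.1 at day 90, and 36.5 and 38.5 on chips a and b, which is 3.17-fold, 3.92-fold and 3.71-fold more at day 60. The sums of the day 200 chips were closer to each other than either was to day 60. Few cells carried the chip a sum, where the 10 cells with the most SNORD reads held 56.4% of them. On chip b such cells held 27.6% and at day 60 11.3%. A SNORD read was found in 77.9%, 40.8%, 19.7% and 42.3% of the thinned cells, with exact 95% binomial intervals of 74.2% to 81.2% at day 60 and 37.2% to 47.4% on chip b, and 85.6%, 54.2%, 31.5% and 64.3% before thinning. Of the 19 day 60 columns, 10 lay above the highest other column at 148 CPM. Without the SNORD116 family the sums were 78.4, 41.7, 32.2 and 30.9 CPM. Without SNORD3A as well they were 45.98, 36.2, 30.9 and 26.7 CPM, so the other 34 members differed by 1.27-fold to 1.72-fold.

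The SNORD116 family comes from a paternally expressed cluster on chromosome 15 whose loss is known from Prader-Willi syndrome, and no target RNA of it is established. It had 13 rows of 30 annotated copies, with reads in 13 rows at day 60, 6 at day 90, and 3 and 7 on chips a and b. As a family it stood at 64.6 CPM at day 60 (63.1 to 66.1), 3.40 at day 90, and 4.34 and 7.56 on chips a and b. Day 60 was 19.0-fold, 14.9-fold and 8.55-fold above the others, and its lowest column, at 29.5 CPM, lay just above the highest of the others at 28.7 CPM. Cells with a read of the family numbered 389, 90, 50 and 148, or 58.5%, 6.87%, 7.30% and 19.9% of the thinned cells. Among annotated copies 6 are identical to another copy, and reads that align equally well to several places were not counted, so the copies' levels are uncertain and the family sum counts the reads that one copy alone could hold. The host SNHG14, a long RNA that runs through the cluster, stood at 198, 170, 192 and 234 CPM and was highest on chip b.

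Copies of SNORD116 did not all keep the same proportion. SNORD116-8 stood at 31.4, 0.242, 0.228 and 0.919 CPM with reads in 281, 13, 15 and 44 cells, which is 130-fold, 138-fold and 34.1-fold more at day 60. Its day 60 columns ran from 12.3 to 59.3 CPM, above the 3.16 CPM that any other column reached. SNORD116-2, which is 4 edits away in the sequences above, stood at 14.3, 1.62, 3.88 and 4.09 CPM, or 8.83-fold, 3.68-fold and 3.49-fold more at day 60. Thus SNORD116-8 exceeded SNORD116-2 at day 60 and was below it on all 3 other chips. SNORD116-26, 28 edits from SNORD116-8, stood at 3.99, 0.0778, 0.228 and 0.123 CPM. SNORD115, the name of the neighbouring imprinted family, had 1 row, which was not among the members matched to 1 locus. That row stood at 0.924, 0.968, 2.55 and 1.80 CPM in 5 to 10 cells a chip. Whether its reads come from the cluster was not tested. SNORD113 and SNORD114 had no row, and no member row carried exactly the name SNORD118, SNORD13 or SCARNA2.

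SNORD3A, the U3 RNA, is transcribed from its own promoter and is needed to cut the precursor of the small ribosomal subunit RNA. It stood at 32.4 CPM at day 60 in 103 cells, 5.50 at day 90 in 68 cells, 1.23 on chip a in 6 cells and 4.25 on chip b in 33 cells. Day 60 was 5.88-fold, 26.3-fold and 7.62-fold above the others, and the columns overlapped, with day 60 from 1.70 to 85.4 CPM and chip b up to 32.5 CPM. The annotation holds near-identical U3 copies, so reads that fit several copies are missing from this value. SNORD3A spans 699 bases in GENCODE 44, and where in it the reads lie was not tested. SNORD13E, named as a relative of the RNA that guides acetylation of ribosomal RNA, stood at 6.94, 6.82, 7.01 and 6.29 CPM while its host DENND4A stood at 39.1, 108, 142 and 114 CPM. By thinned cells SNORD13E was less even, at 6.75%, 5.19%, 1.40% and 4.46%, and its chip a level rests on 13 cells, with columns of up to 71.5 CPM. SNORD63, with several annotated loci, was also close between days, at 8.31, 6.93, 10.3 and 5.12 CPM, with 12 cells giving its chip a value. SNORD99 was lower at day 60 than later, at 0.982, 3.94, 5.31 and 4.53 CPM in 16, 21, 14 and 12 cells, and its host SNHG12 stood at 25.0, 34.1, 23.1 and 30.1 CPM. SNORD14A, in the ribosomal protein gene RPS13, was highest at day 90 at 0.610, 4.42, 1.91 and 1.39 CPM.

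To set the members beside all rows, a row was counted as higher or lower when its CPM, after adding 0.5, differed at least 2-fold, for day 200 on both chips, among rows with reads in at least 20 cells. This left 49 of the 107 members and 18707 rows in all. A member may enter this group through the chip where it is high, so the shares describe the members that entered and not all 107. Against day 60, day 200 was lower for 26 of the 49 members, which is 53.1%, beside 7.16% of all rows. It was higher for 2, SCARNA20 and SNORD99, beside 6.97% of all rows. The lower members were 5 of 9 SCARNA, 5 of 12 SNORA and 16 of 28 SNORD rows, and 7 of the 16 were SNORD116 copies. Day 90 was lower than day 60 for 27 of the 49, which is 55.1%, beside 10.2% of all rows, and higher for 7, beside 12.6%. Those 7 were SCARNA20, SNORA12, SNORA33, SNORA81, SNORD11, SNORD14A and SNORD99.

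Day 200 was higher than day 90 for 1 member, SNORD116-2, beside 3.14% of all rows, and lower for 5, beside 5.36%. These counts need both day 200 chips. By chip b alone 7 were higher and 6 lower than day 90, beside 9.04% and 9.23% of all rows. By chip a alone 3 were higher and 17 lower, beside 8.29% and 18.7% of all rows. Against day 60 the single chips gave 26 lower members on chip b and 34 on chip a, beside 9.92% and 21.5% of all rows. Chip a exceeded chip b for SCARNA23 and SNORA12, beside 6.71% of all rows, and was lower for 15 of the 49 members, beside 17% of all rows. That share, 30.6%, is the size of difference that 2 chips of the same day gave. Members have low levels, and among the 45 of them under 10 CPM day 200 was lower than day 60 for 23, beside 12.7% of the 8394 rows under that level, and day 90 for 24, beside 15.5%. Listed zeros take part in these counts. Of the 26 members lower at day 200, 17 were listed at 0 on some chip, and of the 18 members with reads on all 4 chips, which were chosen for this after the data were seen, 9 were lower at day 200 and 9 at day 90, beside 3.76% and 8.47% of the 15116 such rows. The 9 were SCARNA22, SCARNA23, SNORA11F, SNORA2, SNORD116-2, SNORD116-26, SNORD116-8, SNORD3A and SNORD89 in both cases.

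**Figure D3:**
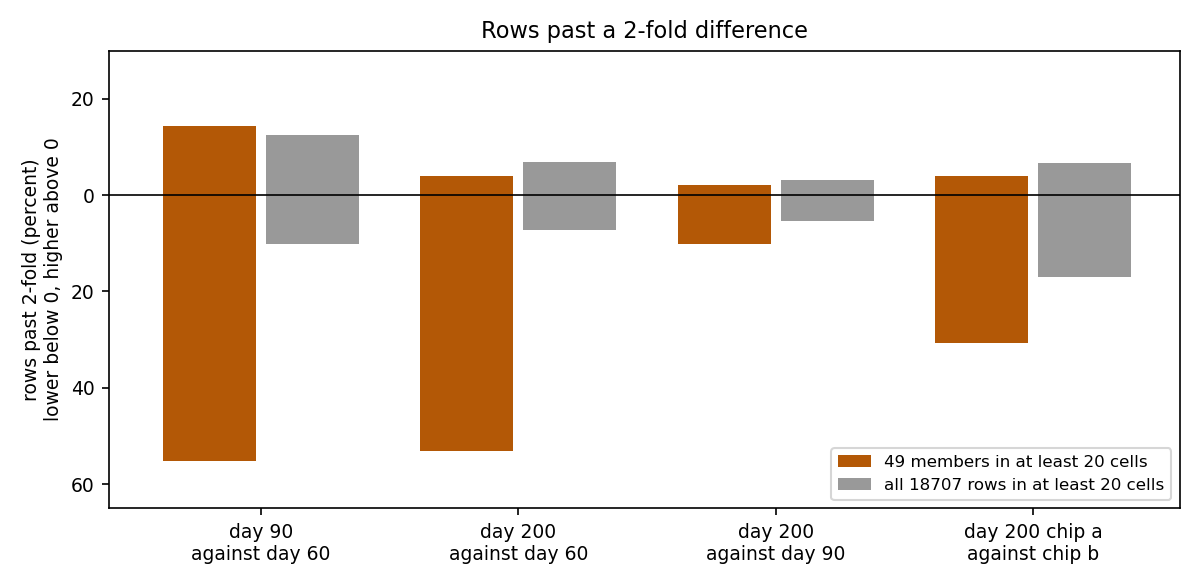
Share of rows, in percent, that were at least 2-fold higher (above 0) or lower (below 0) in each comparison, with bars for the 49 members beside bars for all 18707 rows. The members reach 53.1% and 55.1% lower than day 60 at days 200 and 90, against 7.16% and 10.2% of all rows, and 30.6% lower on chip a than on chip b, against 17% of all rows.

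The tested members' median log2 ratio to day 60 was -2.28 for SCARNA, -1.91 for SNORA and -1.46 for SNORD on chip a, and -2.20, -0.62 and -1.16 on chip b. At day 90 the medians were -1.03, -0.83 and -1.17. All rows tested had medians of -0.12 on chip a, 0.00 on chip b and -0.03 at day 90, on the log2 scale with the same offset of 0.5 CPM. Of the 107 members 43 had reads on 1 chip alone, and for 31 of them that chip was day 60. That is 28.97% of the members, beside 5.54% of all rows with reads at day 60 alone. These shares are not matched for level. Only day 60 listed members with reads in fewer than 5 cells, 8 in all, and chips a and b had fewer cells, 356 and 381 against 578. For day 90 alone the numbers were 11 members, or 10.3%, beside 9.08% of all rows.

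**Figure D4:**
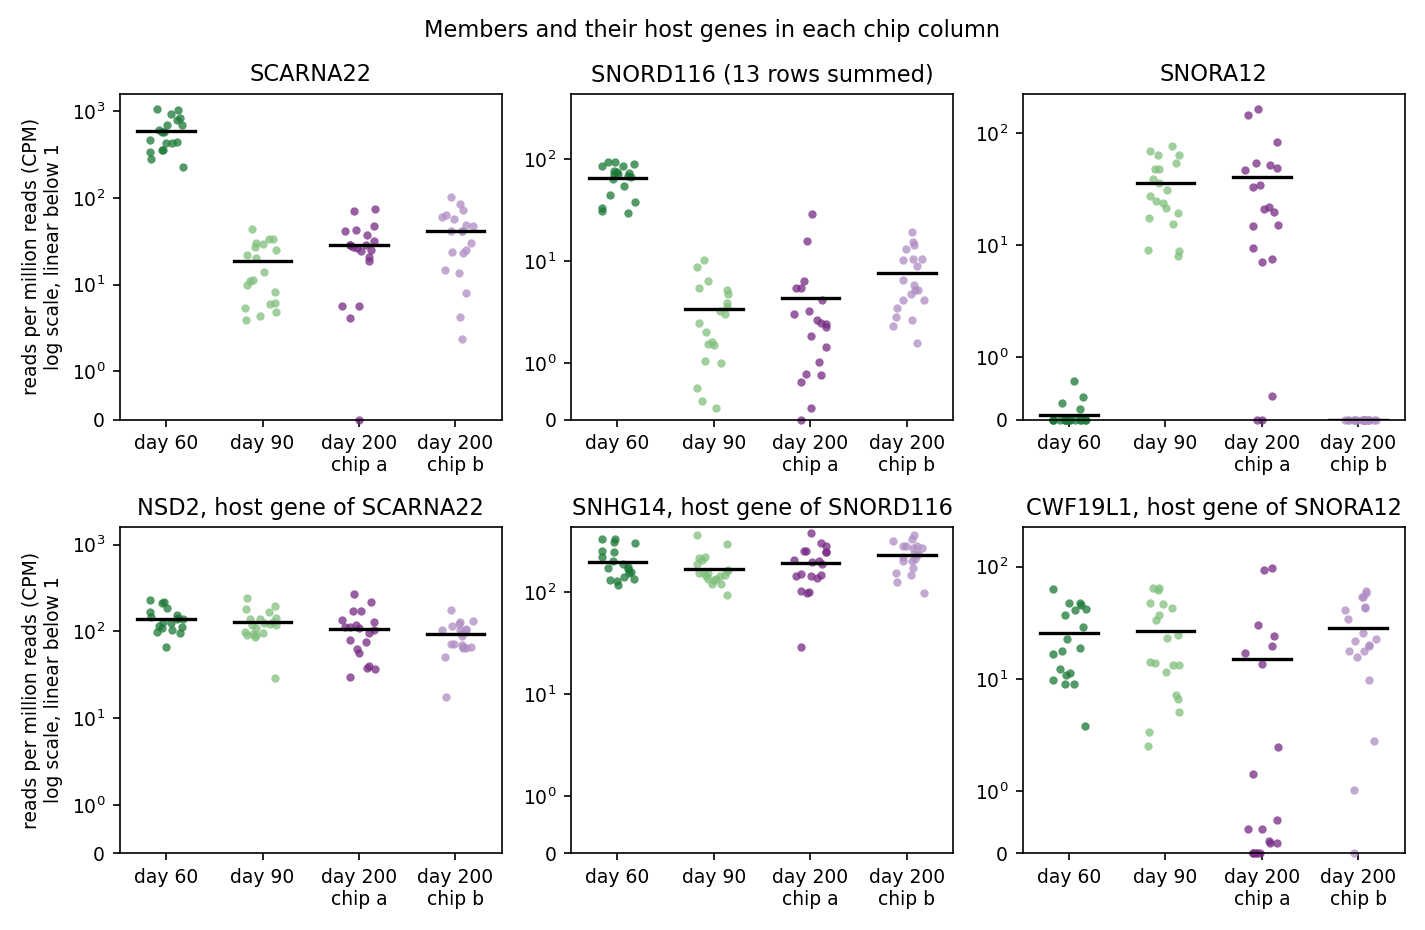
CPM of SCARNA22, the SNORD116 family and SNORA12 (upper panels) and of their host genes NSD2, SNHG14 and CWF19L1 (lower panels), on a log axis that is linear below 1, with 1 point for each chip column and a line for the whole chip. The day 60 lines of SCARNA22 and SNORD116 lie at 589 and 64.6 CPM, far above the other chips, while NSD2 lies between 92.5 and 139 CPM and SNHG14 between 170 and 234 CPM.

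Since most members are cut from a host transcript, host reads were set beside them, per kb of exon for both. Such values take reads to be spread over all exons of the host, which was not tested, so the ratios below depend on host length. Reads of the mature small RNA and of unspliced host RNA over the same bases were not told apart. Of the 73 host rows, 4 were higher and 4 lower at day 200 than at day 60, or 5.48% each way, beside 6.97% and 7.16% of all rows. At day 90 3 were higher and 2 lower, or 4.11% and 2.74%, beside 12.6% and 10.2% of all rows. The share of host genes past the rule at day 200 was thus near that of all rows. Their median log2 ratio was -0.37 on chip a, -0.22 on chip b and -0.04 at day 90. Reads per kb of the SCARNA members over those of their hosts came to 38.6 at day 60, 1.87 at day 90, and 3.01 and 3.91 on chips a and b. For SNORA the ratios were 0.129, 0.0794, 0.0919 and 0.0376, and for SNORD 0.146, 0.0378, 0.0546 and 0.0590. SCARNA22 alone stood 687-fold above NSD2 per kb at day 60, and 23.9-fold, 43.8-fold and 72.7-fold above it later.

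Part of this rests on members whose bases an exon of another gene covers, 28 in all, by the exons of GENCODE 44. The authors counted on an earlier GENCODE release, whose exons may differ, and under their counting a read over exons of 2 genes is dropped. Whether NSD2 exons covered SCARNA22 in the release they used was not tested. Without them the SNORD ratio at day 200 over day 60 was -0.06 on the log2 scale instead of -1.36, and at day 90 -0.51 instead of -1.95. All 13 SNORD116 rows are among those left out. For SCARNA, where this leaves out SCARNA22, it was -1.34 instead of -3.49 at day 200. Across members the level of the small RNA and that of the host, both per kb, had a Spearman correlation of -0.13 over 75 members at day 60, 0.16 over 60 at day 90, -0.10 over 16 on chip a and 0.09 over 38 on chip b, as a description of members that share libraries.

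Within single cells, a pair stood out after the values were seen. SNORD104 lies at chr17:64146083-64146152 in an intron of 200 bases of SNHG25, a short noncoding host gene. At day 60 an SNHG25 read was found in 87.3% of the cells with a SNORD104 read and in 44.2% of the others. At day 90 the shares were 86.4% and 28.1%, and on chip b they were 96.0% and 31.7%. The Spearman correlation of the pair over cells was 0.31, 0.40 and 0.42, a description of cells that share depth. SNORD104 stood at 4.18, 3.04, 1.43 and 2.17 CPM, and SNHG25 at 56.5, 11.2, 4.72 and 16.1 CPM. SNORD99, in an intron of 329 bases of SNHG12, gave 81.0% and 22.03% at day 90, with 17 cells holding both. For SCARNA22 and NSD2 no such gap was seen at day 60, with 63.8% against 57.1%.

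Of 35 tested genes of proteins that bind, build and house these RNAs, 1 was higher and 0 lower at day 200 than at day 60, beside 6.97% and 7.16% of all rows. At day 90 1 was higher and 1 lower, beside 12.6% and 10.2% of all rows. With so few genes these counts do not set the group apart from all rows. In lists chosen with earlier results known, the box C/D core summed to 849, 780, 744 and 648 CPM, with NOP58, SNU13 and NOP56 the highest, and none of its 4 genes passed the 2-fold rule at day 200 or day 90. The box H/ACA core summed to 339, 310, 362 and 281 CPM, with none of 4 genes past the rule. Of the 10 assembly factors, among them RPAP3 and NOLC1, none passed at 551, 471, 467 and 464 CPM. The 5 Cajal body genes, led by COIL, which encodes coilin, summed to 148, 136, 90.7 and 99.2 CPM, with none past the rule against day 60. Among 6 processing genes TOE1, a Cajal body nuclease gene, was higher at days 90 and 200, at 2.59, 13.4, 8.03 and 8.47 CPM, and PARN, a deadenylase gene, was lower at day 90, at 21.1, 9.68, 10.4 and 14.6 CPM. The 6 nucleolus genes, with NCL and NPM1 the highest, had none past the rule against day 60.

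Some other small noncoding RNAs also had more reads at day 60. Of 16 listed, 9 had a row and 6 entered the count, and 3 of the 6 were lower at day 200 than at day 60, beside 7.16% of all rows, and none was higher, beside 6.97%. RNU4ATAC, the RNA of the minor spliceosome that pairs with U6atac, stood at 54.9, 6.52, 8.16 and 18.2 CPM. The spliceosomal RNA rows together, copies included, were 201, 99.1, 110 and 133 CPM, and the RNY rows 27.8, 9.19, 8.91 and 8.62 CPM. The 75 RN7SL rows, named after the signal recognition particle RNA but without an RN7SL1 row, stood at 60.2, 71.8, 41.4 and 61.3 CPM. Of these, RN7SL2 gave 11.3, 13.8, 7.69 and 8.95 CPM. The 21 RN7SK rows are copies, since RN7SK itself had no row. They stood at 8.81, 7.97, a listed 0 and 19.4 CPM, highest on chip b, and the MIR rows at 21.9, 21.1, 4.56 and 12.7 CPM. The SNHG rows summed to 1364, 1646, 1004 and 1180 CPM, and the nuclear RNAs MALAT1 and NEAT1 together to 53853, 60385, 58297 and 58351 CPM. Neither group of long RNAs had the day 60 excess of the members in a like size, and MALAT1 with NEAT1 was lowest at day 60.

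Levels were also summed over cells by the marker list that each cell scored highest on, which is a range of a score and not a cell type. Of the 1976 cells, 228, or 11.5%, lay within 0.1 of the next list. At day 60 SCARNA22 was read in every group, from 248 CPM in cells nearest the ECM list to 1024 CPM in cells nearest the Müller glia list, among groups of at least 20 cells. In such groups it ran from 3.10 to 33.3 CPM at day 90, from 23.2 to 59.1 on chip a and from 10.1 to 71.4 on chip b. Every day 60 group was above every later group of that size, across lists. The SNORD116 family ran from 40.6 CPM in cells nearest the Mitotic list to 89.2 CPM in cells nearest the RGC list at day 60, and from 0.320 to 14.5 CPM in later groups of that size. Not all lists can be compared across days in groups of that size. At day 60 the cells nearest the cone, rod and RPE lists numbered 18, 6 and 6, and at day 200 no chip had 20 cells nearest the Mitotic or Cluster 7 list. Only the Müller glia list had such groups at day 60 and on chip a.

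**Figure D5:**
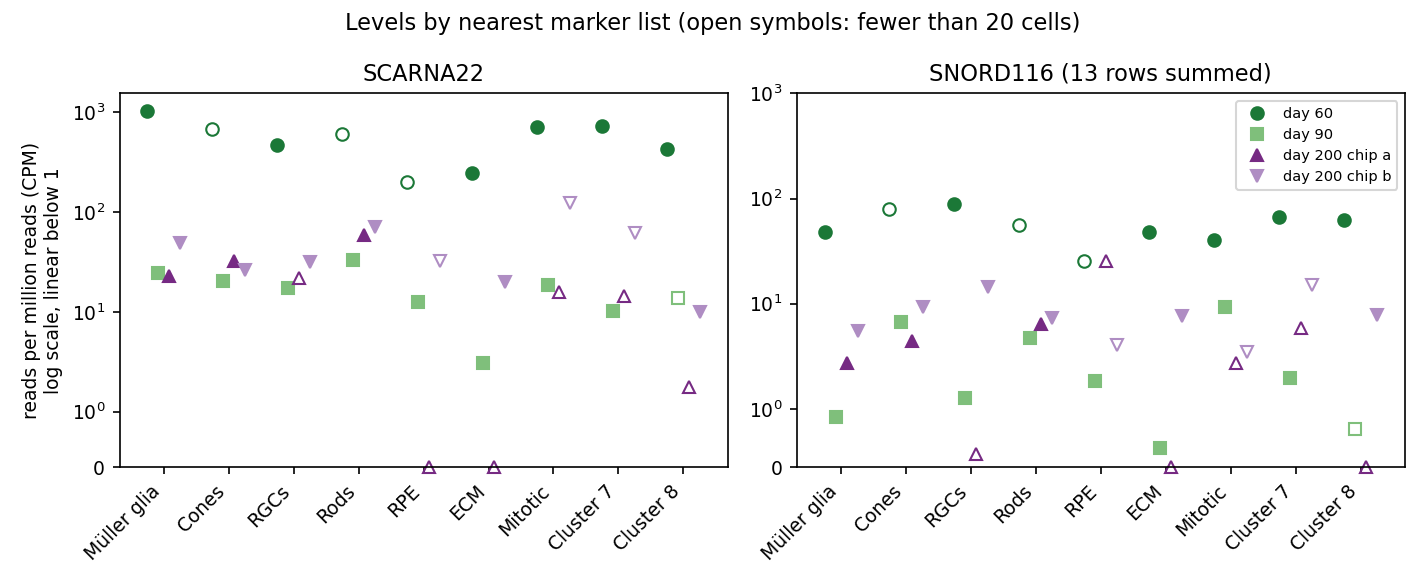
CPM of SCARNA22 and of the SNORD116 family in cells grouped by their nearest marker list, by chip, on a log axis that is linear below 1, with open symbols for groups of under 20 cells. SCARNA22 runs from 248 to 1024 CPM in the day 60 groups of at least 20 cells and reaches 71.4 CPM in such groups of the other chips, and SNORD116 runs from 40.6 to 89.2 CPM against at most 14.5 CPM.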

How the data were processed

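Reads per gene were measured in single cells on 4 chips. The authors trimmed reads with Trimmomatic 0.33, aligned them with STAR 2.4.0 to GRCh38.p7, counted with HTSeq 0.6 per the labels, and used Scater to drop poor cells and rare genes. The cut on reads per cell was lower at day 60 than on the other days, and day 90 had a higher concentration of spikes with a looser cut on them, so these settings cannot be told apart from the day. The deposited counts are whole reads without normalization or molecular identifiers. With HTSeq a read that overlaps exons of 2 genes or aligns equally well to several places is not counted, and no strand setting is named, so members under host exons and near-identical copies can be undercounted. All cells were used and 0 columns were left out. Of 40 row barcodes 38 were on all 4 chips, and no pair of barcode and column was held by more than 1 cell. The spike row stayed out of library sizes.

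Reads were summed per chip in Python 3.11.15 with numpy 2.4.6, pandas 2.3.3 and scipy 1.17.1. CPM carry exact Poisson intervals. Ratios used an offset of 0.5 CPM, a 2-fold rule and rows with reads in at least 20 cells. Cells were thinned to 50000 reads with a fixed seed, which left out 6 cells of day 90, and shares have Clopper-Pearson intervals. Host genes hold the member on the same strand in GENCODE 44. The steps were tested on simulated data. Text names the 8 members of each class with the highest mean CPM, the 3 largest rises and falls past 2-fold, members with their own promoter, the imprinted families, their hosts, and the highest genes of each pathway list. SNORD104 with SNHG25 and SNORD99 with SNHG12 were singled out within cells after their values were seen. The members, lists and rules were chosen with earlier results of these data known. Alternatives are given in the closing section.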

Additional observations from a re-analysis of the deposited data

How the results depend on the processing

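Of 158 alternative values 94 kept the direction and size of the reported one, 63 moved and 1 turned. Size counted as kept within the standard deviation of the 2 day 200 chips, or within 1.5-fold for counts of members. On the log2 scale that span was 0.055 for SNORD totals and 0.91 for SNORA against host reads. Leaving out 1 day 200 chip always stays within this span, so for totals, shares and host ratios such values could not count as moved. For the class totals, as log2 of day 200 over day 60, SCARNA was -3.77, and -4.24 without the 10 cells of each chip with the most class reads, -2.75 without the 3 members with the most reads and -1.71 without members overlapping an exon of another gene. The last 2 gave -1.75 and -1.59 for SCARNA at day 90, against -4.36. SNORA at day 200 was -1.94, and -2.48 without those cells, -3.77 without its 3 leading members and -3.21 with members read on all 4 chips, which at day 90 gave -2.56 against -1.002. SNORD at day 200 was -1.93, and -2.58 without those cells, -1.74 in cells with at least 150000 reads, -1.42 without its 3 leading members, -1.24 without exon-overlapping members and -1.70 with members read on all 4 chips. SNORD at day 90 was -1.66, and -1.77 as a mean over cells, -1.78 without those cells, -1.51 in cells with at least 150000 reads, -1.13 without its leading members and -0.88 without exon-overlapping ones.

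For day 200 lower than day 60 (26 of 49 members) the count was 14 of 49 with an offset of 2 CPM, 50 of 104 and 13 of 22 with at least 5 and 50 cells, and 9 of 18 with rows read on all 4 chips, a choice made after the data were seen. The shares of all rows under these settings were 3.85%, 9.99%, 5.14% and 3.76%. For day 90 lower than day 60 (27 of 49) the same settings gave 13 of 49, 46 of 104, 14 of 22 and 9 of 18, beside 5.74%, 11.2%, 9.21% and 8.47% of all rows. For day 90 higher (7) they gave 4 of 49, 14 of 104, 4 of 22 and 4 of 18. A fold of 3 gave 4 of 49. The shares of all rows were 8.31%, 15.8%, 11.0%, 10.8% and 5.82% in that order. For day 200 higher than day 60 (2) an offset of 2 CPM gave 1 of 49 and at least 50 cells 1 of 22. Folds of 1.5 and 3 gave 4 and 1 of 49, and the share of thinned cells 1 of 49. All rows stood at 5.27%, 7.19%, 12.6%, 3.34% and 2.28% in that order. For day 200 higher than day 90 (1), SNORD116-2, an offset of 2 CPM gave 0 of 49. Folds of 1.5 and 3 gave 3 and 0 of 49, and thinned shares 0 of 49. All rows stood at 1.84%, 7.96%, 1.04% and 0.577% in that order. For day 200 lower than day 90 (5), offsets of 0.1 and 2 CPM gave 12 and 1 of 49, beside 7.34% and 2.67% of all rows. At least 5 and 50 cells gave 13 of 104 and 1 of 22, beside 11.1% and 2.94%. Folds of 1.5 and 3 gave 11 and 1 of 49, beside 10.6% and 2.84%. Cells with at least 150000 reads gave 2 of 38, beside 4.35%, and thinned shares 9 of 49, beside 5.48%. Rows read on all 4 chips gave 1 of 18, beside 2.06%. With 1 day 200 chip left out, day 200 against day 60 gave 3 to 5 higher and 26 to 34 lower members of 49. The shares of all rows were 12.5% to 13.3% and 9.92% to 21.5%. Day 200 against day 90 then gave 3 to 7 higher and 6 to 17 lower members. There the shares of all rows were 8.29% to 9.04% and 9.23% to 18.7%.

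The log2 ratio of member to host reads per kb for SCARNA at day 200 was -3.49, and -1.34 without exon-overlapping members and -3.93 without the 10 cells. At day 90 it was -4.37, and -2.10 as a median over members and -1.51 without exon-overlapping members. SNORD at day 200 was -1.36, and -0.060 without exon-overlapping members and -1.92 without the 10 cells. At day 90 it was -1.95, and -8.39 as a median over members, -0.51 without exon-overlapping members and -2.15 without the 10 cells. SNORA at day 90 was -0.70 and turned to 0.95 as a median over members. The median gave no value at day 200, where the median member was listed at 0 on chip a in all 3 classes. The cause was not tested for these changes beyond the members or cells left out. Shares of cells at day 200 against day 60 kept direction under each of the 15 alternative values. They also stayed within the spread of the 2 day 200 chips, but values with 1 chip left out could not fall outside it. For SNORD that spread was 16.0 percentage points, and the values ran from -58.2 to -35.6 around -46.9. Alternatives for the shares at day 90 were not run. No paired analysis was possible because no result comes from a test, and the numbers that the groups share are those of chip columns. Leaving out chips of days 60 or 90 was not run, since each is the only chip of its day. Members read in few cells rest on those cells. For 13 of the 107 members 1 cell held over 50% of the reads.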
